A study of Mus musculus with 6 samples.

Results

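The genes described here are 10 vascular guidance genes: the ephrins Efnb1, Efnb2 and Efna1, the Eph receptors Ephb4 and Epha2, the semaphorins Sema3c and Sema3f, the receptors Plxnd1 and Unc5b, and the secreted ligand Slit2. They were chosen by name, with earlier results of these data known. A probe set was used where the platform annotation gave it exactly 1 gene symbol. All 10 genes had at least 1 such probe set, 22 in all, out of 18193 named genes and 45037 tested probe sets. A gene's value is the mean of its probe sets. Endothelial cells came from plugs of Matrigel, a gel of basement membrane proteins, implanted into the peritoneum of Balb/c nude mice, which have no thymus and so lack most T cells. The MFAP5 group had plugs that held recombinant microfibrillar-associated protein 5, a secreted glycoprotein of elastic microfibrils, and the control group had plugs without it. Each group had 3 samples, and each sample was read on 1 array (Affymetrix Mouse Genome 430 2.0, 1 colour). The sources used here do not give the age and sex of the mice, the MFAP5 dose, the time in the animal or the way endothelial cells were separated from other cells. Samples are described as independent, but not whether they were from different animals. The p-values and SEs therefore measure only the spread among the arrays, with some of it pooled over genes.

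Guidance proteins steer growing axons and also the sprouts of growing vessels. Ephrins are ligands held on the cell surface that bind Eph receptor tyrosine kinases on a neighbouring cell, and B-type ephrins, which span the membrane, also signal back into the cell that carries them. In vessels ephrin-B2 marks arterial and EphB4 venous endothelium. Secreted class 3 semaphorins act through plexins and neuropilins, and most repel endothelial cells. Netrins and Flrt proteins bind Unc5b, a repulsive receptor of endothelial tip cells, and Slit2 is a ligand of Robo receptors.

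The values were relative. The median over the 6 arrays had been subtracted from each probe set, which leaves the differences between arrays and removes the level, so no gene was compared with another for its level. Differences are MFAP5 minus control, and the log base was taken as 2, on which every fold rests. Array medians over all probe sets lay between -0.03 and 0 in the MFAP5 arrays and between -0.01 and 0.05 in the control arrays. Control replicate 1 stood apart from the other controls: over all probe sets it correlated at -0.03 and 0.02 with control replicates 2 and 3, against 0.69 between those arrays. The hybridization spike-ins, 14 probe sets for bacterial transcripts, had mean signals of -0.04, -0.01 and -0.01 in the MFAP5 arrays and -0.32, 0.64 and 0.65 in the control arrays. Endothelial markers could not be checked for presence, since centring removed their level. Of 12 endothelial markers, limma called none higher or lower. At an unadjusted p under 0.05, 3 were lower, against 14.4% of all genes. The mean was lower with MFAP5 in 10 of the 12, against 65.6% of all genes. Their median difference was -0.21, and that of all genes was -0.08. Single endothelial markers ran from -0.75 for Tek to 0.24 for Kdr. All 10 measured adipocyte markers were lower in the 3 MFAP5 arrays without overlap, which held for 17.8% of all genes. Of these markers 8 fell, where 2.79% of all genes were called lower. Limma called 5 of 8 neutrophil markers and 1 of 8 neuronal and Schwann cell markers lower, and none of 10 macrophage markers (1 higher and 1 lower at an unadjusted p under 0.05) or of 10 mesothelial markers (1 lower). The number of arrays limits the precision.

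Of the 10 genes, 1 rose and none fell (limma over all 18193 genes, Benjamini-Hochberg adjusted p under 0.05). The gene that rose was Efnb1. Of all genes, 0.759% were called higher and 2.79% lower. At an unadjusted p under 0.05, 3 of the 10 were higher (Efnb1, Efnb2 and Slit2) and 3 lower (Efna1, Sema3c and Unc5b), against 5.33% and 14.4% of all genes. In the same 3 higher genes all MFAP5 arrays lay above all control arrays, which held for 6.51% of genes, and in the same 3 lower genes all MFAP5 arrays lay below, which held for 17.8%. Of the 22 probe sets 1 rose and 1 fell, against 1.56% and 1.72% of all probe sets. The 10 genes were chosen with earlier results of these data known, so their shares beside those of all genes are a description only. In the other 4 genes, Ephb4, Epha2, Sema3f and Plxnd1, the groups overlapped. The median difference of the 10 was -0.11, close to the -0.08 of all genes, and single genes ran from -0.54 for Unc5b to 1.09 for Slit2. In bulk samples like these, fewer cells of a type and less RNA per cell cannot be told apart.

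**Figure D1:**
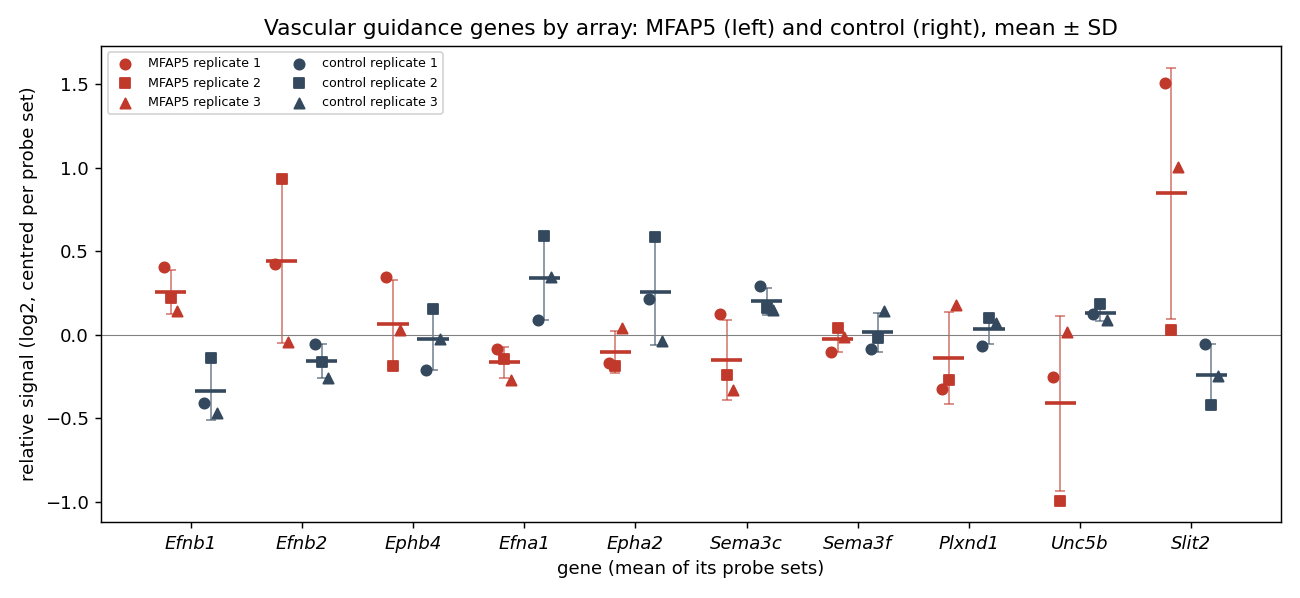
Relative signal (log2, vertical axis) of the 10 guidance genes in every array, MFAP5 left and control right of each gene's position, with the symbol giving the replicate number, lines the mean and bars the SD (n = 3 per group). The Efnb1 groups do not overlap and are both narrow, while Slit2, Efnb2 and Unc5b spread widely among the MFAP5 arrays.

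Efnb1 encodes ephrin-B1, a transmembrane ligand of Eph receptors. Its relative signals were 0.40, 0.22 and 0.14 in MFAP5 replicates 1, 2 and 3, against -0.41, -0.14 and -0.47 in control replicates 1, 2 and 3. Every MFAP5 array was above every control array, and both groups were narrow, with SDs of 0.13 and 0.17. Efnb1 rose by 0.59 ± 0.12 (SE, n = 3 per group; 95% interval 0.31 to 0.88; limma adjusted p = 0.0406), which is 1.51-fold. Its 3 probe sets moved together without overlap, by 0.71, 0.48 and 0.59 (1418285_at, 1418286_a_at and 1451591_a_at). The first of them passed the threshold over all probe sets (limma adjusted p = 0.0376), and the others had adjusted p = 0.0976 and 0.0635. The call was close to the threshold. It was lost without control replicate 2 (difference 0.69, limma adjusted p = 0.0511) or 3 (0.53, 0.186). Leaving out MFAP5 replicate 1 (0.52, 0.135), 2 (0.61, 0.0927) or 3 (0.65, 0.0589) ended it too, while it passed without control replicate 1 (0.56, 0.0408). It was also lost when the spike-in mean was added to the model (0.63, 0.0889) and with the median of the probe sets (0.60, 0.0504).

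Efnb2 encodes ephrin-B2, the ligand of EphB4 and a marker of arterial endothelium. It stood at 0.42, 0.93 and -0.04 in MFAP5 replicates 1, 2 and 3, against -0.06, -0.16 and -0.26 in the controls. The groups were parted only by the gap between -0.04 in MFAP5 replicate 3 and -0.06 in control replicate 1, and replicate 2 was the highest MFAP5 array. The difference was 0.60 ± 0.22 (SE, n = 3 per group; 95% interval 0.10 to 1.09; limma adjusted p = 0.185), as large as that of Efnb1 but with an MFAP5 SD of 0.49. Without MFAP5 replicate 2 it was 0.35, and without MFAP5 replicate 3 it was 0.84 and passed (limma adjusted p = 0.0428). In each of the 4 probe sets of Efnb2 the groups overlapped. In 1419638_at and 1419639_at MFAP5 replicates 1 and 2 stood well above the rest, with differences of 0.82 and 0.78. In 1449548_at only MFAP5 replicate 2, at 0.87, stood above the controls (difference 0.61), and 1449549_at had a difference of 0.18.

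Ephb4 encodes the receptor of ephrin-B2 and marks venous endothelium. Its single probe set gave 0.34, -0.19 and 0.03 in the MFAP5 arrays and -0.21, 0.15 and -0.03 in the control arrays. The groups overlapped, with the highest and the lowest array in different groups, and the difference was 0.09 ± 0.16 (SE, n = 3 per group; 95% interval -0.27 to 0.45; limma adjusted p = 0.776). The interval leaves room for differences of either sign. Within each array, the difference of Efnb1 and Ephb4 was 0.06, 0.41 and 0.11 with MFAP5 and -0.20, -0.29 and -0.44 in controls. Because each probe set was centred, the sign within an array does not tell whether ligand or receptor was higher. Only the contrast between the groups can be read, here and for the other ligand and receptor pairs. The mean of Efnb1 minus Ephb4 was higher with MFAP5 by 0.50 (exact permutation test, two-sided, p = 0.1, adjusted p = 0.4 over 4 pairs), where 0.1 is the smallest p that 3 against 3 arrays allow. For Efnb2 minus Ephb4 the same contrast was 0.51 (exact permutation p = 0.3, adjusted p = 0.6), with a range from -0.07 to 1.12 in the MFAP5 arrays. Without MFAP5 replicate 2 it was 0.14.

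The 250 bases before the RefSeq start sites of Efnb1, Efnb2 and Slit2 (GRCm38.p6) are shown because these are the 3 genes whose MFAP5 arrays all lay above the controls. They lie at chrX:99135811-99136060 (plus strand), chr8:8661243-8661492 (minus strand) and chr5:47982905-47983154 (plus strand). The window of Slit2 lies inside the annotated span of the gene, whose outermost start is at 47981291, and the other windows lie just outside theirs. Each is written on the strand of its gene. Capitals mark TGGGAA, a core of sites of the Notch effector RBPJ, and GGGCGG, the GC box.
Efnb1: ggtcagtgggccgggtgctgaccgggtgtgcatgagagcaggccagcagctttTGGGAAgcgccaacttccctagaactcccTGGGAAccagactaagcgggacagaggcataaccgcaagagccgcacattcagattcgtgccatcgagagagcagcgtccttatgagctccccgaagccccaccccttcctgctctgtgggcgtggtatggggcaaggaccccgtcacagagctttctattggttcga
Efnb2: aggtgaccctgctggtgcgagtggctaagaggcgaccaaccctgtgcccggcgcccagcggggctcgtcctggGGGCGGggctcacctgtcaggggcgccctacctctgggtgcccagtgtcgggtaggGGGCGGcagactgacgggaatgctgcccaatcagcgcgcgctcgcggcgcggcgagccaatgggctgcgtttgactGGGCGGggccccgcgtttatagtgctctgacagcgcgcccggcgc
Slit2: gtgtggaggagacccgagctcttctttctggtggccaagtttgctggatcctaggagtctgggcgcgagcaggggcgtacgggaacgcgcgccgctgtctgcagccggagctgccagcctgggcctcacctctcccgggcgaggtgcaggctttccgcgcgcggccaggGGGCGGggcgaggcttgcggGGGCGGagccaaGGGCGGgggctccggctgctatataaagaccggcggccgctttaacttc
The Efnb1 window held 2 copies of TGGGAA and no GC box, and the Efnb2 and Slit2 windows held 3 GC boxes each and no TGGGAA. Searched on both strands over 32851 windows of the same length, TGGGAA was found in 21.6% and GGGCGG in 32.7%. The AP-1 motif TGANTCA (6.75% of windows) was found in none of the windows of the 9 genes that had one, and the CRE motif TGACGTCA (1.55%) in that of Epha2 alone. All 10 windows of these 9 genes had a GC content above the median of 52.4% over all windows, from 55.6% for Epha2 to 78.4% for Sema3c, and 8 of the 9 genes held a GC box. None of these motifs overlapped another in the 3 sequences shown, and a match of letters is not evidence of binding.

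Efna1 encodes ephrin-A1, a ligand on a lipid anchor that is induced in endothelium by inflammatory cytokines and binds EphA2. It stood at -0.08, -0.15 and -0.27 in the MFAP5 arrays, against 0.08, 0.59 and 0.34 in the control arrays. All MFAP5 values were below all controls, with the closest gap between MFAP5 replicate 1 and control replicate 1. The difference was -0.51 ± 0.14 (SE, n = 3 per group; 95% interval -0.82 to -0.19; limma adjusted p = 0.0927), so it missed the threshold. Without control replicate 1 it was -0.63 and passed (limma adjusted p = 0.0189). Its probe sets 1416895_at and 1448510_at differed by -0.60 and -0.41, both without overlap.

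Epha2, the receptor of ephrin-A1, had 1 probe set, at -0.17, -0.19 and 0.04 with MFAP5 and 0.21, 0.58 and -0.04 in controls. MFAP5 replicate 3 lay above control replicate 3, so the groups overlapped. The difference was -0.36 ± 0.16 (SE, n = 3 per group; 95% interval -0.72 to 0.01; limma adjusted p = 0.268). Without control replicate 2, the highest array, it was -0.19. Within arrays, Efna1 minus Epha2 differed between the groups by -0.15 (exact permutation test, two-sided, p = 0.6, adjusted p = 0.7 over 4 pairs), and by -0.00097 without control replicate 3 and -0.02 without MFAP5 replicate 3.

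Sema3c, a secreted class 3 semaphorin that signals through neuropilins and plexin D1, had gene values of 0.12, -0.24 and -0.33 with MFAP5 and 0.29, 0.16 and 0.15 in controls. The MFAP5 arrays were all lower, replicate 1 by little. The difference was -0.35 ± 0.13 (SE, n = 3 per group; 95% interval -0.66 to -0.04; limma adjusted p = 0.204). The probe sets disagreed. In 1420696_at the MFAP5 arrays read -0.14, -0.48 and -0.62 and the control arrays 0.14, 0.31 and 0.37, and this probe set fell by 0.69 (limma over all probe sets, adjusted p = 0.0477). In 1429348_at the groups overlapped, at 0.39, -0.01 and -0.05 with MFAP5 and 0.44, 0.01 and -0.08 in controls, with a difference of -0.02. Which transcripts each probe set detects was not determined here.

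Sema3f, a semaphorin that acts through neuropilin-2 and repels endothelial cells, showed the smallest difference of the 10, at -0.04 ± 0.10 (SE, n = 3 per group; 95% interval -0.28 to 0.20; limma adjusted p = 0.852), and its sign turned with quantile normalization, to 0.0078. Its arrays read -0.11, 0.04 and -0.02 with MFAP5 and -0.08, -0.02 and 0.14 in controls, with the groups mixed. Its 3 probe sets differed by -0.23, 0.10 and 0.01. Plxnd1, the plexin D1 receptor of endothelial cells, had 1 probe set at -0.32, -0.27 and 0.18 with MFAP5 and -0.07, 0.10 and 0.07 in controls. MFAP5 replicates 1 and 2 were below and replicate 3 above all controls. The difference was -0.17 ± 0.15 (SE, n = 3 per group; 95% interval -0.51 to 0.16; limma adjusted p = 0.535). With 1 array left out it lay between -0.08, without MFAP5 replicate 1, and -0.33, without MFAP5 replicate 3. Sema3c minus Plxnd1 differed between the groups by -0.18 (exact permutation test, two-sided, p = 0.7, adjusted p = 0.7 over 4 pairs), and its sign rested on 1 array: it was 0.07 without MFAP5 replicate 3, -0.41 without MFAP5 replicate 1 and -0.08 without control replicate 1.

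Unc5b, the netrin receptor of endothelial tip cells and arteries, stood at -0.26, -0.99 and 0.02 with MFAP5, against 0.12, 0.19 and 0.08 in controls. The controls lay close together (SD 0.05), and MFAP5 replicate 2 was far below every other array. The difference was -0.54 ± 0.23 (SE, n = 3 per group; 95% interval -1.06 to -0.02; limma adjusted p = 0.236), and without MFAP5 replicate 2 it was -0.25. Both probe sets had their lowest value in MFAP5 replicate 2, at -1.18 in 1435110_at and -0.81 in 1453269_at.

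Slit2 had the largest difference of the 10. It stood at 1.51, 0.03 and 1.00 in MFAP5 replicates 1, 2 and 3, against -0.06, -0.42 and -0.25 in the controls. MFAP5 replicates 1 and 3 were well above all other arrays, and replicate 2 was just above the controls. The difference was 1.09 ± 0.32, which is 2.13-fold (SE, n = 3 per group; 95% interval 0.36 to 1.82; limma adjusted p = 0.113), and it missed the threshold. Without MFAP5 replicate 2 it was 1.50 and passed (limma adjusted p = 0.00547), and without MFAP5 replicate 1 it was 0.76 (0.248). The 3 probe sets shared this order of MFAP5 arrays, with differences of 1.08 in 1424659_at, 0.69 in 1451430_at and 1.50 in 1458140_at. In 1451430_at MFAP5 replicate 2, at -0.08, lay below 2 of the 3 controls.

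**Figure D2:**
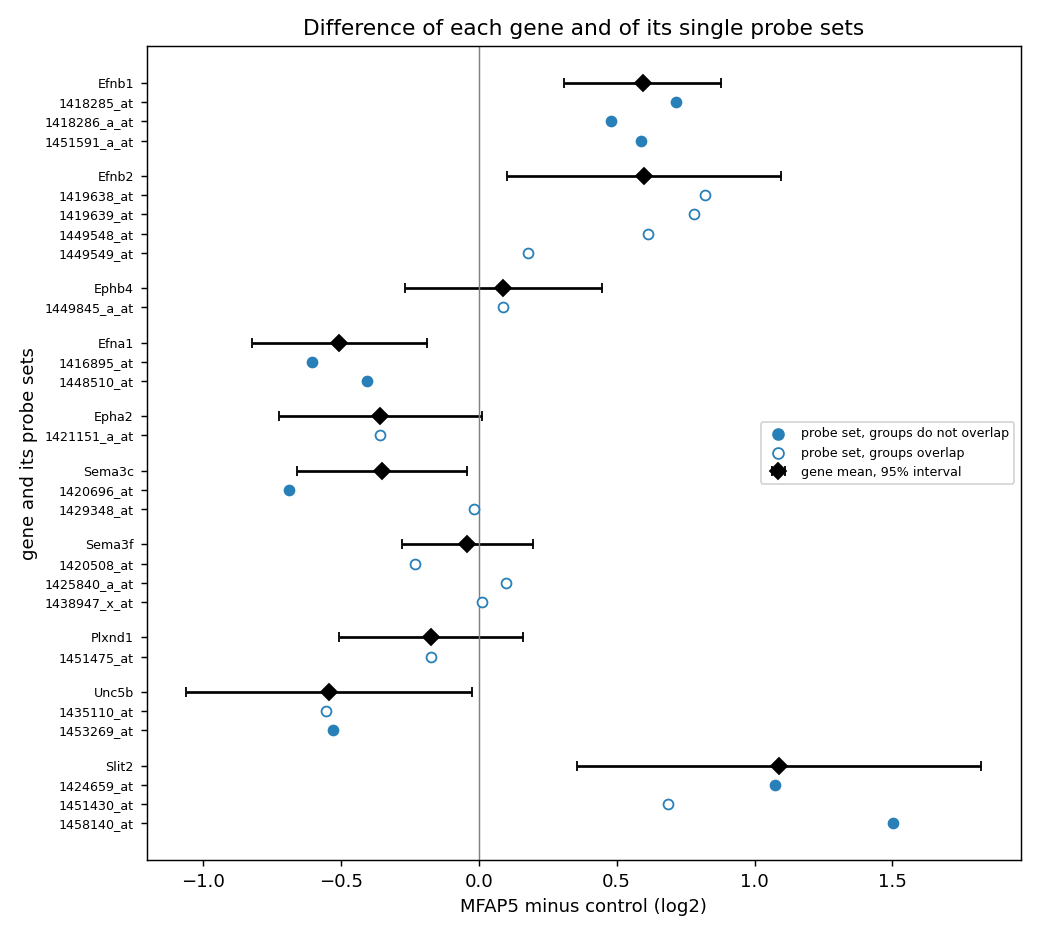
MFAP5 minus control (log2, horizontal axis) for each gene, with its 95% interval as a diamond and bar, and for its single probe sets as circles, filled where the 3 MFAP5 and 3 control arrays do not overlap. The 3 Efnb1 probe sets are filled and close together, at 0.48 to 0.71, while the Sema3c probe sets lie at -0.69 and -0.02.

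The MFAP5 arrays differed among themselves in some of the 10 genes. Replicate 2 had the highest Efnb2, at 0.93, the lowest Unc5b, at -0.99, and the lowest Slit2 of its group, at 0.03. The MFAP5 SD was more than 2 times the control SD in 5 of the 10 genes, Unc5b (10.2 times), Efnb2 (4.81), Slit2 (4.10), Plxnd1 (3.10) and Sema3c (3.01), against 17.4% of all genes. With 3 arrays per group these ratios are imprecise, and they are given as a description. Efna1 and Epha2 went the other way, with ratios of 0.377 and 0.399, and in both control replicate 2 was the highest array. Fibroblast markers are listed because fibroblasts can enter the plugs. They had array medians of 0.16, 0.08 and -0.03 with MFAP5 and 0.01, -0.22 and -0.19 in controls. Limma called none of these 10 higher and 1 lower, Pi16 (difference -0.93), against 0.759% and 2.79% of all genes. At an unadjusted p under 0.05, 3 were higher and 1 lower, against 5.33% and 14.4% of all genes. Pericyte and smooth muscle markers had medians of -0.29, -0.18 and -0.01 with MFAP5 and 0.01, 0.10 and 0.03 in controls. Limma called 1 of these 10 lower, beside 2.79% of all genes, and 3 were lower at an unadjusted p under 0.05, beside 14.4%. The mean was lower with MFAP5 in 8 of the 10, beside 65.6% of all genes. Adipocyte markers had medians of -2.88, -2.16 and -0.96 with MFAP5 and 1.05, 1.35 and 1.26 in controls. For beta-actin, the 3' minus the 5' probe set, a measure of RNA quality, was 0.14, 0.08 and 0.04 (log2) with MFAP5 and 0.00, -0.05 and -0.03 in controls (exact permutation test, two-sided, p = 0.1). Each probe set had been centred, so these values compare the arrays with each other. They do not give the 3' to 5' ratio of any array. The same measure for Gapdh overlapped, at 0.09, -0.04 and 0.03 with MFAP5 and -0.16, 0.03 and -0.03 in controls (exact permutation p = 0.4). The part of these cell types and of RNA quality in the guidance differences was not tested.

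**Figure D3:**
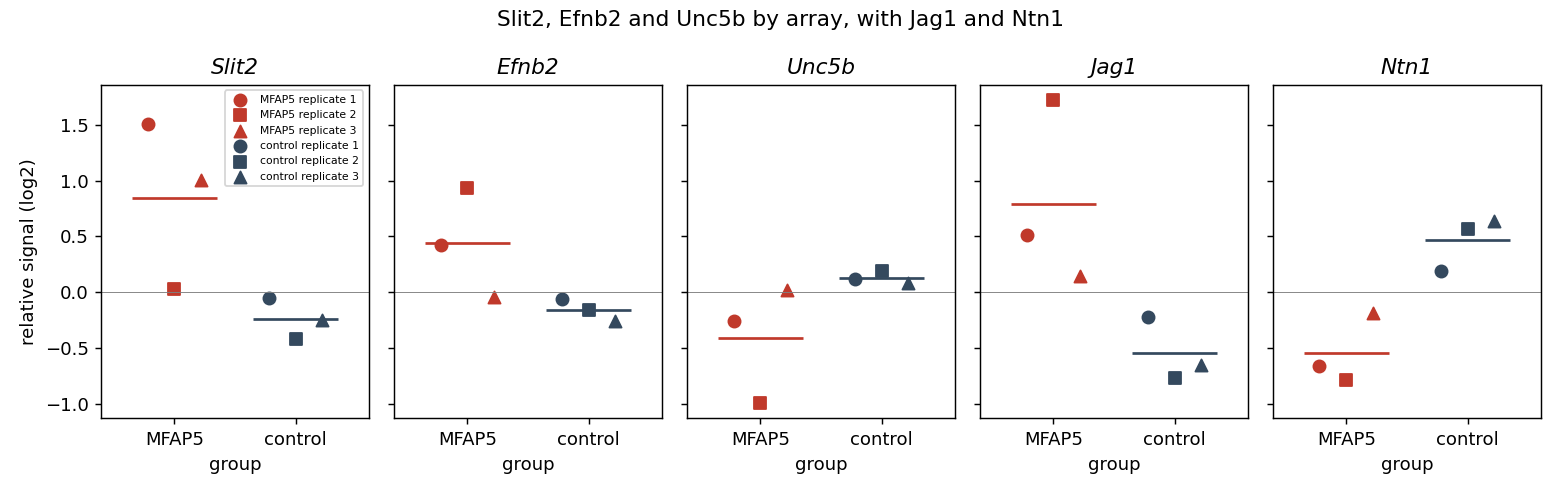
Relative signal (log2, vertical axis) of Slit2, Efnb2, Unc5b, the Notch ligand Jag1 and the netrin Ntn1 in the 3 MFAP5 arrays and the 3 control arrays, with symbols for replicate numbers and lines for group means. MFAP5 replicate 2 (square) is lowest of its group for Slit2 and Unc5b and highest for Efnb2 and Jag1. In each panel the groups do not overlap, and for Unc5b and Ntn1 the MFAP5 arrays are the lower ones.

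The other genes of these families comprised 91 measured genes of 92 listed, in lists also chosen with earlier results of these data known. None rose and 1 fell, the netrin gene Ntn1, against 0.759% and 2.79% of all genes, and at an unadjusted p under 0.05 there were 8 higher and 8 lower, 8.79% each, against 5.33% and 14.4% of all genes. Their median difference was -0.02, beside -0.08 for all genes. The 3 MFAP5 arrays lay above all controls in 9 of the 91 and below them in 10, which is 9.89% and 11.0%, against 6.51% and 17.8% of all genes. By class, limma called no gene among 5 ephrins, 11 Eph receptors, 18 semaphorins, 10 plexins and neuropilins, 9 Slits, Robos and Flrt ligands, and 27 effectors, and 1 among 11 netrins and netrin receptors. The median differences of these classes lay between -0.12 for the ephrins and 0.06 for the effectors.

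Ntn1 encodes netrin-1, a ligand of Unc5b. It stood at -0.66, -0.79 and -0.19 with MFAP5 and 0.19, 0.57 and 0.64 in controls, without overlap. Ntn1 fell by 1.01 ± 0.18 (SE, n = 3 per group; limma adjusted p = 0.0209). Its probe sets differed in size, at -1.55 in 1454974_at, which passed over all probe sets (limma adjusted p = 0.00945), and -0.47 in 1422987_at, where the groups overlapped. The call was lost without control replicate 2 (-0.96, limma adjusted p = 0.108), without control replicate 3 (-0.92, 0.111), without MFAP5 replicate 1 (-0.95, 0.0805), without MFAP5 replicate 2 (-0.89, 0.0583) and with the spike-in covariate (-0.86, 0.0780). Ntn4, a netrin of basement membranes that was chosen after its values were seen, stood at 0.56, 1.74 and 0.05 with MFAP5 and -0.45, -0.05 and -0.18 in controls. Its difference was 1.01 (limma adjusted p = 0.182), and 0.53 without MFAP5 replicate 2, the highest array.

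Other named genes of these families missed the threshold in the gene values as reported. Flrt3, a membrane protein that binds Unc5 receptors, differed by 0.64 ± 0.15 (SE, n = 3 per group; limma adjusted p = 0.0539), with replicate 2, at 0.63, the highest of the MFAP5 arrays. Its probe set 1453102_at differed by 0.80 and passed over all probe sets (limma adjusted p = 0.0361). The other, 1429310_at, differed by 0.47 (0.164), and neither showed overlap. Neo1, the netrin and RGM receptor neogenin, differed by 0.63 (adjusted p = 0.0621), but its 5 probe sets ran from -0.64 to 1.42. The highest, 1444295_at, passed over all probe sets (limma adjusted p = 0.00924). Without overlap, 1447693_s_at was higher with MFAP5 by 1.31, while 1447694_x_at differed by -0.64. Nck1, an adaptor that links phosphorylated receptors to actin, differed by 0.45 (adjusted p = 0.0833). Its 3 probe sets differed by -0.02, 0.28 and 1.09, the last in 1447271_at, and their median gave 0.27. The semaphorin gene Sema4c differed by 0.47 (adjusted p = 0.131). On the lower side Ephb1, a receptor of B-type ephrins, differed by -0.52 (adjusted p = 0.0539), Sema3g, a semaphorin of arterial endothelium, by -0.62 (adjusted p = 0.114), and Sema3d by -0.58 (adjusted p = 0.172). In all of these but Sema3d the groups did not overlap. Among all genes, the MFAP5 arrays lay above all controls in 6.51% and below them in 17.8%. The named genes were picked for small p-values, which favours separated groups, so this is a description only. Sema3g was at -0.40 without control replicate 2 and passed without control replicate 1 (-0.75, limma adjusted p = 0.0454), and Sema3d was at -0.38 without control replicate 1. Calls near the threshold turned with the processing. Of the 14 alternatives, Flrt3 was called in 6, among them quantile normalization (limma adjusted p = 0.0437) and array median centring (0.0407). Neo1 and Ephb1 were called in 5 each, among them a variance trend (limma adjusted p = 0.0494 and 0.0434) and the replicate number as a block (0.0280 and 0.0470), and Nck1 in 2.

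**Figure D4:**
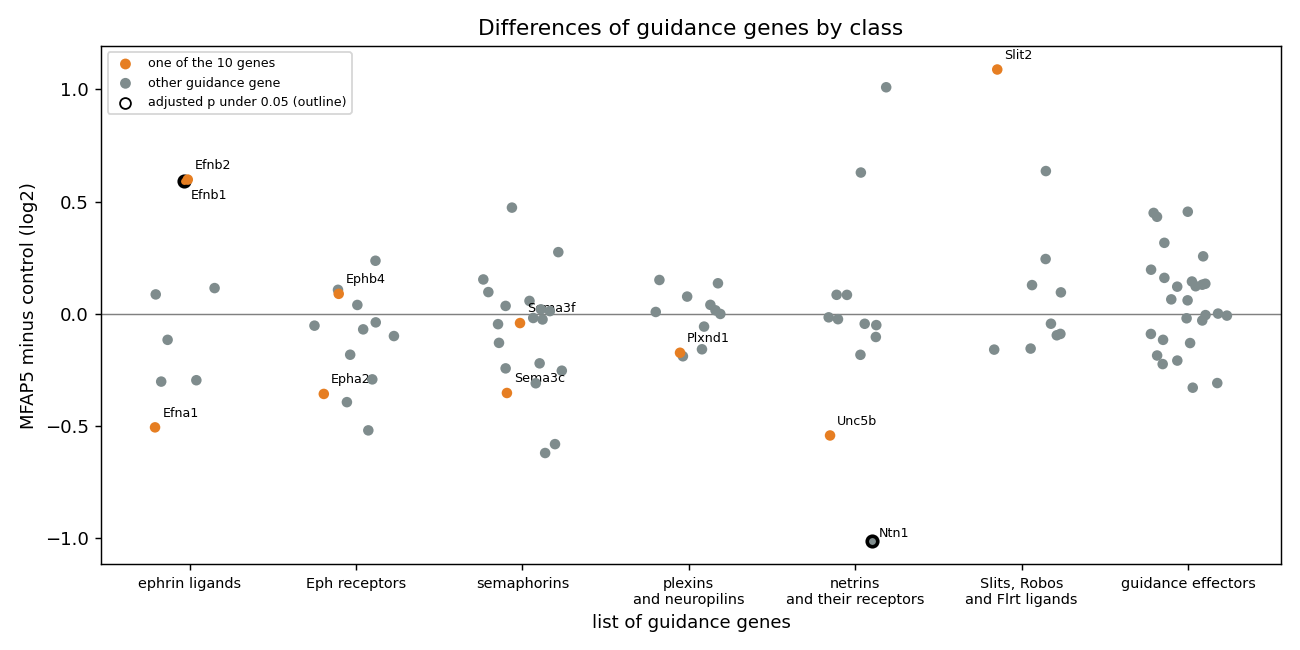
MFAP5 minus control (log2, vertical axis) for every measured guidance gene by class, with the 10 genes in orange, the others in grey and a black outline where the adjusted p was under 0.05. Efnb1 and Ntn1 carry the outline, and most other genes lie between -0.5 and 0.5.

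Since Efnb2 and Ephb4 are markers of arteries and veins, and Unc5b of tip cells at the front of sprouts, other markers of these states were listed. Of 11 arterial markers limma called none. At an unadjusted p under 0.05, 1 was higher and 3 were lower, against 5.33% and 14.4% of all genes. The median difference of these markers was -0.05, beside -0.08 for all genes. Jag1, a Notch ligand, differed by 1.34 ± 0.36 (SE, n = 3 per group; limma adjusted p = 0.0852). It stood at 0.51, 1.72 and 0.15 with MFAP5 and -0.22, -0.77 and -0.65 in controls, and so shared with Efnb2 its highest value in MFAP5 replicate 2. Without that array the difference was 0.87, and without MFAP5 replicate 3 it was 1.66 and passed (limma adjusted p = 0.0409). Notch4 and Sox17, a receptor and a transcription factor of arterial endothelium, differed by -0.33 (adjusted p = 0.156) and -0.31 (adjusted p = 0.200), and both passed without control replicate 1 (limma adjusted p = 0.0443 and 0.0463). The Notch4 probe sets disagreed, with differences of 0.02 in 1436901_at, where the groups overlapped, -0.76 in 1449146_at and -0.24 in 1456263_at. Of 7 venous markers, none was higher and 2 were lower at an unadjusted p under 0.05, beside 5.33% and 14.4% of all genes. After adjustment 1 fell, beside 2.79% of all genes. It was Ackr1, a chemokine-binding receptor of venules, which fell by 0.61 ± 0.11 (SE, n = 3 per group; limma adjusted p = 0.0216). Its arrays read -0.20, -0.23 and -0.39 with MFAP5 and 0.20, 0.38 and 0.44 in controls, and without any single array other than control replicate 1 it missed the threshold, with adjusted p between 0.0555 and 0.119. It also missed it with the spike-in covariate (-0.54, limma adjusted p = 0.0583). Emcn and Selp, an endothelial sialomucin and P-selectin, differed by -0.31 and -0.21 (adjusted p = 0.206 and 0.296).

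Of 10 tip cell markers 2 fell, beside 2.79% of all genes. Nid2, the basement membrane protein nidogen-2, read -0.69, -1.03 and -0.41 with MFAP5 and 0.48, 0.41 and 0.58 in controls. It fell by 1.20 ± 0.16 (SE, n = 3 per group; adjusted p = 0.00473 by limma) and passed whichever array was left out, with adjusted p between 0.00203 and 0.0360. Apln, the peptide apelin, fell by 0.59 ± 0.11 (SE, n = 3 per group; limma adjusted p = 0.0296), with -0.37, -0.19 and -0.21 in the MFAP5 arrays and 0.19, 0.49 and 0.32 in the control arrays. Leaving out any array other than control replicate 1 ended the Apln call, with adjusted p between 0.0633 and 0.126, and so did the spike-in covariate (-0.51, limma adjusted p = 0.0780) and the probe set of largest SD (-0.59, 0.0582). Ramp3, a receptor-modifying protein, differed by 0.53 (adjusted p = 0.409), with overlap, and by 0.23 without MFAP5 replicate 2 and 0.90 without MFAP5 replicate 1. Across the list 5 genes had a higher and 5 a lower mean. Other cell types can express these markers, the MFAP5 arrays also had the lower adipocyte markers, and which cells the signals came from was not tested.

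The genes whose pattern was most like that of Efnb1 over the 6 arrays were Mppe1, Rtkn2 and Thsd4. They were picked as the 3 highest Pearson coefficients of 18193 genes, at 0.991, 0.987 and 0.986 over 6 arrays of 2 groups, so the coefficients are high by choice. Their own differences were 0.11, 0.14 and 0.36, and none passed the threshold (adjusted p = 0.528, 0.409 and 0.116).

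Over the 14 other ways of processing the values, Efnb1 was called in 7, Slit2 in 3, and Efnb2 and Efna1 in 2 each. The other 6 genes were called in none of them by limma.

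**Figure D5:**
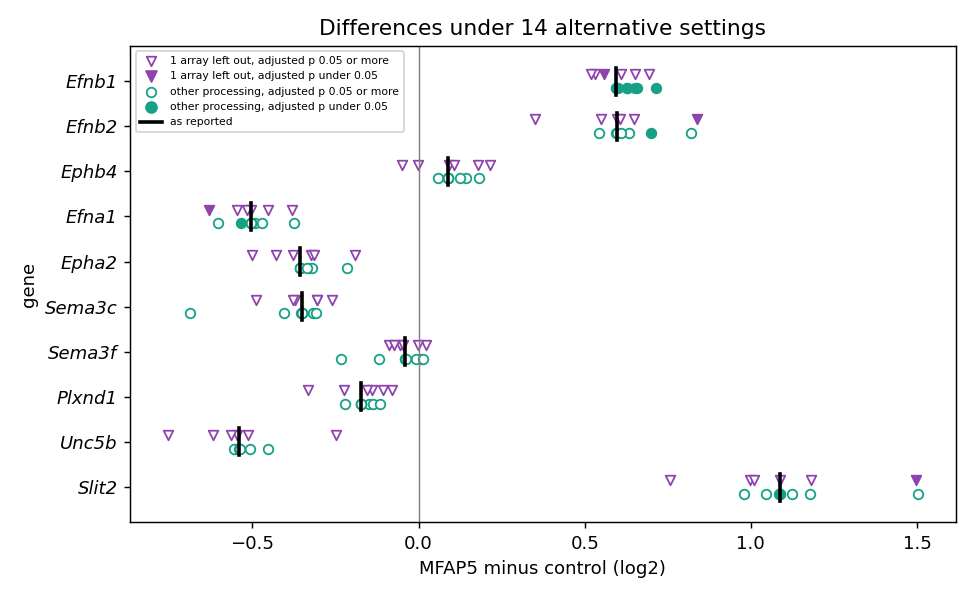
MFAP5 minus control (log2, horizontal axis) of the 10 genes as reported (black bar), with 1 array left out (triangles) and under other processing (circles), filled where the adjusted p was under 0.05. Efnb1 keeps a difference of 0.52 to 0.71 but is filled in 7 of 14 settings, and Slit2 spans 0.76 to 1.50.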

How the data were processed

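Biotin-labelled cRNA from 3 MFAP5 and 3 control samples was hybridized to 1-colour arrays, per the labels' protocols. The authors' deposited values were read as log2 signals from the values themselves: they were positive and negative, and the 6 values of each probe set had a median within 5e-07 of 0. A natural log was not excluded. The submitters' processing notes name MAS5, and the scaling and further normalization were not stated in these sources. Centring removed levels, so no filter on dim probe sets could be applied.

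The 64 control probe sets were left out. Of the 45037 others, 34945 had 1 gene symbol in the platform annotation, which was brought up to date by Entrez number from RefSeq genes (GRCm38.p6). Genes were the means of their probe sets. The tool was limma 3.58.1 in R 4.3.3 (functions lmFit and eBayes, two-sided, Benjamini-Hochberg over all 18193 genes or all probe sets, threshold 0.05). Single contrasts used exact permutation of 3 against 3 arrays. The procedure was tested on simulated data. Alternatives were other scalings, variance models, gene summaries, a spike-in covariate, the replicate number as a block and leaving out each array. Other guidance genes were named where they passed the threshold or had the 4 smallest p in a direction, and up to 3 genes of the arterial, venous and tip cell lists by smallest p. The members and lists were chosen with earlier results of these data known. The Eph receptor Ephb2 had no probe set with 1 symbol and is not analysed here.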

Additional observations from a re-analysis of the deposited data

How the results depend on the processing

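The 10 differences kept their sign under all 14 alternatives, except Sema3f, at 0.0078 with quantile normalization, 0.012 with the spike-in covariate and -0.089 to 0.023 with 1 array left out, above 0 without control replicate 3, and Ephb4, at -0.051 to 0.214 with 1 array left out, below 0 without control replicate 1 or MFAP5 replicate 1. Genes whose groups did not overlap could not turn sign when 1 array was left out. Counts of calls moved more than differences. Of the 10 genes, array weights called 3 higher and 1 lower, the spike-in covariate and the median of probe sets called none higher, and with 1 array left out 0 to 1 were higher and 0 to 1 lower. Of the 91 other guidance genes, quantile normalization, array median centring and the probe set of largest SD each called 1 higher, a variance trend 2 higher and 2 lower, array weights 6 and 9, the spike-in covariate 0 lower, and leaving out 1 array 0 to 4 higher and 0 to 4 lower. Over all genes, 138 were called higher and 508 lower as reported, 1125 and 2879 with array weights, 48 and 316 with the spike-in covariate, 223 higher with the probe set of largest SD, and 14 to 760 higher and 205 to 1914 lower with 1 array left out. The causes were not tested.

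With the replicate number as a block, 2 of the 10 genes (Efnb1 and Slit2) were called higher, and 1 of the other guidance genes was called higher and 3 lower. The numbers are shared by both groups in the labels, but same-numbered arrays deviated together only weakly, with correlations over genes of 0.18, 0.06 and 0.07. With 1 array left out, Efnb2 minus Ephb4 ran from 0.137 to 0.733, Efnb1 minus Ephb4 from 0.397 to 0.572 and Efna1 minus Epha2 from -0.25 to -0.00097, and Sema3c minus Plxnd1 from -0.408 to 0.070, above 0 without MFAP5 replicate 3. The 4 contrasts kept their sign with quantile normalization and array median centring. With 3 arrays per group an exact permutation test cannot fall below p = 0.1.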
